A study of Mus musculus with 2 samples.

Results

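The miR-23, miR-27 and miR-24 genes stand in 2 paralog clusters of the mouse genome, the 23a cluster (miR-23a, miR-27a and miR-24-2) and the 23b cluster (miR-23b, miR-27b and miR-24-1). The account covers 7 of the 1187 miRNA precursors listed in the count files, chosen by name: the 6 precursors above and miR-3074-1, a hairpin annotated on the other strand of miR-24-1. Small RNA was sequenced from hindlimb muscle in 2 libraries. The hypercholesterolemic library (HC) came from ApoE-/- mice, which the series' design text places on a high-fat diet. The normocholesterolemic library (NC) came from C57Bl/6 mice of control genotype. Both muscles were ischemic, taken on day 1 after surgical removal of the femoral artery, so an effect of ischemia itself was not measured. The age and sex of the mice and the number of mice per library are not stated in the labels. With 1 library per group the spread between animals could not be estimated, no test was made, and all intervals are 95% intervals of counting error only.

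A miRNA is cut from a hairpin precursor, and its seed (bases 2 to 8) pairs with target mRNAs, which are then repressed. The clusters are each transcribed as 1 unit that yields miR-23, miR-27 and miR-24. In endothelial cells miR-23 and miR-27 are known to promote angiogenesis, while miR-24 restrains it in ischemic mouse heart. In skeletal muscle miR-23a represses the atrophy ligases MuRF1 and atrogin-1, and miR-27b represses Pax3 as satellite cells enter differentiation. miR-27 also represses the adipogenic factor PPARγ.

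The mature sequences are shown because they decide which counts can be told apart. All 7 hairpins and 11 mature sequences of the members are in RefSeq (GRCm38.p6), and miR-23b-3p is named only. The seed is in capitals in each of the following, and all positions are in mm10 (GRCm38).
miR-23a-3p: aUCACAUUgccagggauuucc
miR-27a-3p: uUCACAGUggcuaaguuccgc
miR-27b-3p: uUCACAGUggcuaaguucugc
miR-24-3p: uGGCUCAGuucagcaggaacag
miR-24-1-5p: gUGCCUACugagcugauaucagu
miR-24-2-5p: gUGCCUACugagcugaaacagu
miR-3074-5p: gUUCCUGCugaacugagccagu
miR-27a-3p and miR-27b-3p share the seed UCACAGU and differ at 1 of 21 bases, C19U counted from the 5′ end, which lies outside the seed. miR-23a-3p has a seed that differs from it at 1 base (U7G, miR-23a-3p to miR-27a-3p), and the sequences differ at 10 of 21 bases in all. miR-24-3p is the same sequence from both clusters, whereas its 5p partners share a seed and differ further on. The seed of miR-27 was in no other mature sequence among the 1679 names in the RefSeq table. The seed of miR-24-3p recurred in miR-6413, miR-6410, miR-6369 and miR-5124b, each with a count of 0 in HC and in NC.

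The 23a cluster lies on the plus strand of chromosome 8 within 404 bases. miR-23a spans 84208518 to 84208592, miR-27a 84208672 to 84208758 and miR-24-2 84208815 to 84208921. miR-23a and miR-27a lie in no other annotated gene of GENCODE M21, and the end of miR-24-2 overlaps the exon of the long noncoding RNA Gm26532. The 23b cluster lies on the plus strand of chromosome 13 and is longer, at 792 bases. miR-23b spans 63300484 to 63300557, miR-27b 63300712 to 63300784 and miR-24-1 63301208 to 63301275, all within the protein-coding gene 2010111I01Rik. miR-23b is intronic in each of the 9 transcripts of that gene that span it, while miR-27b is intronic except in 1 of the 9 that span it, marked for nonsense-mediated decay, whose exon holds it whole. Of the 11 transcripts that span miR-24-1, it is partly exonic in 3 and whole within an exon in 1, also marked for nonsense-mediated decay, and intronic in the rest. A transcript of Fancc on the minus strand also spans the 23b cluster, with the hairpins in an intron. miR-3074-1 (63301199 to 63301283, minus strand) covers all of miR-24-1.

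**Figure D1:**
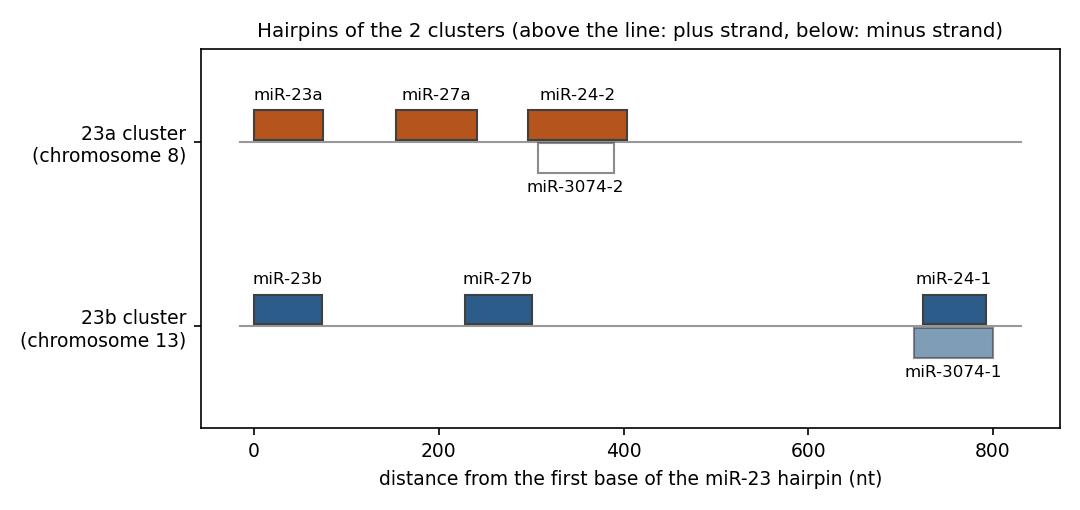
Hairpins of the 2 clusters by distance in nucleotides from the first base of the miR-23 hairpin, with plus-strand hairpins above each line and minus-strand hairpins below it. The 23a cluster spans 404 bases and the 23b cluster 792, and miR-3074-1 and the unfilled miR-3074-2, which is no member, lie opposite miR-24.

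The hairpins of miR-27 are shown next, with both mature products in capitals, because this pair has the widest gap in counts between paralogs.
miR-27a hairpin: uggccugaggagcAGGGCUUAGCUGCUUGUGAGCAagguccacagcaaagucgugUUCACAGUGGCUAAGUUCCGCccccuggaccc
miR-27b hairpin: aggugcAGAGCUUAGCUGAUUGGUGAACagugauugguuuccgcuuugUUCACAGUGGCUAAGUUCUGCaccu
The 5p products differ at 8 of 22 bases, 1 of them in the seed, G3A. GC bases make up 59.8% of the miR-27a hairpin and 47.9% of the miR-27b hairpin.

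miR-27b was by far the most abundant member in both libraries and differed little between them. mmu-mir-27b, as the files name its precursor, had 413929 counts in HC and 550100 in NC, out of 31198050 and 43848576 counts over all precursors. Its level was 12665 CPM in HC and 13143 CPM in NC, where CPM are counts per 1e6 of a library size scaled by the trimmed mean of M-values (TMM). It ranked 12 in HC and 11 in NC among all precursors by count, where copies and opposite hairpins of other miRNAs each held a rank. It took 1.33% of counts in HC (exact Clopper-Pearson interval 1.32 to 1.33%) and 1.255% in NC (1.251 to 1.258%). The log2 fold of HC over NC was -0.053 (-0.059 to -0.048). With 1 precursor kept for miR-24, the family as a whole held 1.59% of counts in HC and 1.496% in NC. Of the family counts miR-27b supplied 83.3% in HC and 83.8% in NC. The log2 fold of the family under TMM was -0.0445 (-0.0498 to -0.0392). Shares divide by plain totals and folds by TMM-scaled sizes, so higher shares in HC stand beside negative folds. The totals over all precursors still list other copies and opposite hairpins separately. Shares of the totals are therefore shares of listed counts, not of separate reads, and would be higher with each set listed once.

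The members of the 23a cluster lay within a 2.12-fold range of mean CPM. mmu-mir-27a had 27067 counts in HC and 32644 in NC, or 828 and 779.9 CPM, a log2 fold of 0.087 (0.063 to 0.11). mmu-mir-23a, the repressor of muscle atrophy ligases, had 12049 counts in HC and 16315 in NC, or 369 and 389.8 CPM, a log2 fold of -0.080 (-0.11 to -0.046). It was the least abundant member in both libraries. mmu-mir-24-2 had 23373 counts in HC and 28471 in NC, or 715 and 680.2 CPM, a log2 fold of 0.072 (0.047 to 0.097).

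In the 23b cluster miR-27b stood 20.5-fold above the lowest member in mean CPM. mmu-mir-23b had 20377 counts in HC and 28628 in NC, or 623 and 684 CPM. Its log2 fold of -0.13 (-0.16 to -0.11) was the largest in size among the 7 precursors under TMM scaling. mmu-mir-24-1 had 21102 counts in HC and 25683 in NC, or 646 and 614 CPM, a log2 fold of 0.073 (0.047 to 0.100).

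**Figure D2:**
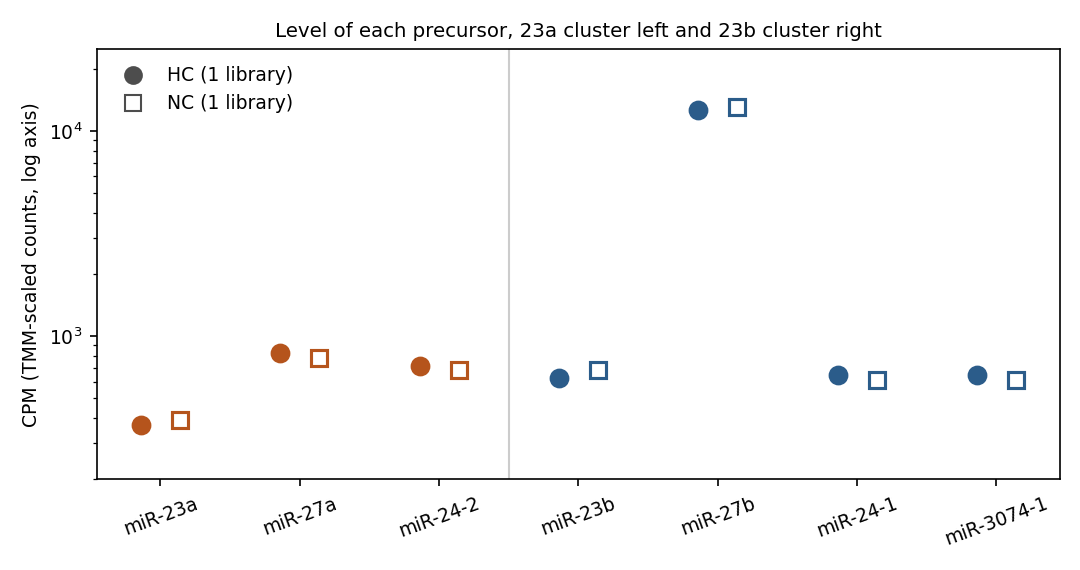
Level of each precursor in CPM (TMM-scaled counts, log axis), with filled circles for the HC library and open squares for the NC library and the 23a cluster on the left. miR-27b lies at 12665 CPM in HC and 13143 CPM in NC, while the other 6 precursors range over 369 to 828 CPM in HC and 389.8 to 779.9 CPM in NC.

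The order of the levels changed in places between the libraries. In HC the CPM order was miR-27b, miR-27a, miR-24-2, miR-3074-1 with miR-24-1, miR-23b and miR-23a. In NC miR-23b stood directly above miR-24-2, and these neighbours did not differ beyond counting error, with a count ratio of miR-24-2 over miR-23b of 0.99 (0.98 to 1.01). The ratio was 1.15 (1.13 to 1.17) in HC. Divided by hairpin length, counts per base in HC were 5670 for miR-27b, 311 for miR-27a, 310.3 for miR-24-1, 275 for miR-23b, 218 for miR-24-2 and 161 for miR-23a. In NC they were 7536, 375, 378, 387, 266 and 218 for the same precursors. The lead of miR-27b and the last place of miR-23a held on both scales in both libraries. The mature products of the members are all 21 to 23 bases long, so counts compare products of nearly equal length.

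Both copies of miR-24 and the hairpins opposite them could not be separated in these counts. mmu-mir-3074-1 had 21105 counts in HC and 25685 in NC, which is 3 more than miR-24-1 in HC and 2 more in NC. Its annotated interval is the wider of the pair. On chromosome 8 the wider hairpin is miR-24-2, with 6 counts more than miR-3074-2 in HC and 1 more in NC. miR-3074-5p lies opposite miR-24-3p and shares 20 of its 22 positions in either cluster. Overlapping precursors that both averaged 10 CPM or more formed 13 pairs, each on opposite strands, of which 11 differed by under 1% in both libraries. The level of miR-3074-1 as a product of its own strand was therefore not measurable, and its values repeat those of miR-24-1.

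miR-24-2 exceeded miR-24-1 by 2271 counts in HC and by 2788 in NC, a ratio of 1.11 (1.09 to 1.13) in HC and 1.11 (1.09 to 1.13) in NC. The odds ratio between the libraries was 1.00 (0.97 to 1.02). Copies close in count were the usual case, since 20 of the 23 names with exactly 2 copies at that level differed by under 15% in both libraries. The 20 include miR-24 and miR-3074 themselves. The miR-24 copies differed by 9.72% of the larger count in HC and 9.79% in NC. Among the 20 only miR-125b differed by more in both libraries, by 12.3% in HC and 11.7% in NC. How many miR-24 reads came from each cluster cannot be told apart here, so miR-24-1, miR-24-2 and miR-3074-1 are 1 measurement and the 7 precursors give 5 separate ones.

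None of the members differed between the libraries by a size that set it apart. The libraries were compared for 222 precursors that averaged 10 CPM or more, all 7 members among them. Of these, 7.21% differed by at least 1.5-fold in either direction with an interval that excluded equality, and 0 of the 7 members, or 0 of the 5 separate measurements, did. At a 2-fold limit 2.25% of precursors passed and again 0 members. The intervals of all 5 separate measurements excluded equality, which at this depth also held for 83.3% of the precursors. They put 2 of the 5 higher in HC (miR-27a, and miR-24 with its 3 listed precursors), where 39.6% of precursors were, and 3 lower, where 43.7% were. The 5 separate log2 folds ran from -0.13 to 0.087 with a median of -0.053, against a median of -0.0007 over the compared precursors and a median size of 0.17 regardless of sign. The central 90% of compared precursors lay between -0.47 and 0.47.

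**Figure D3:**
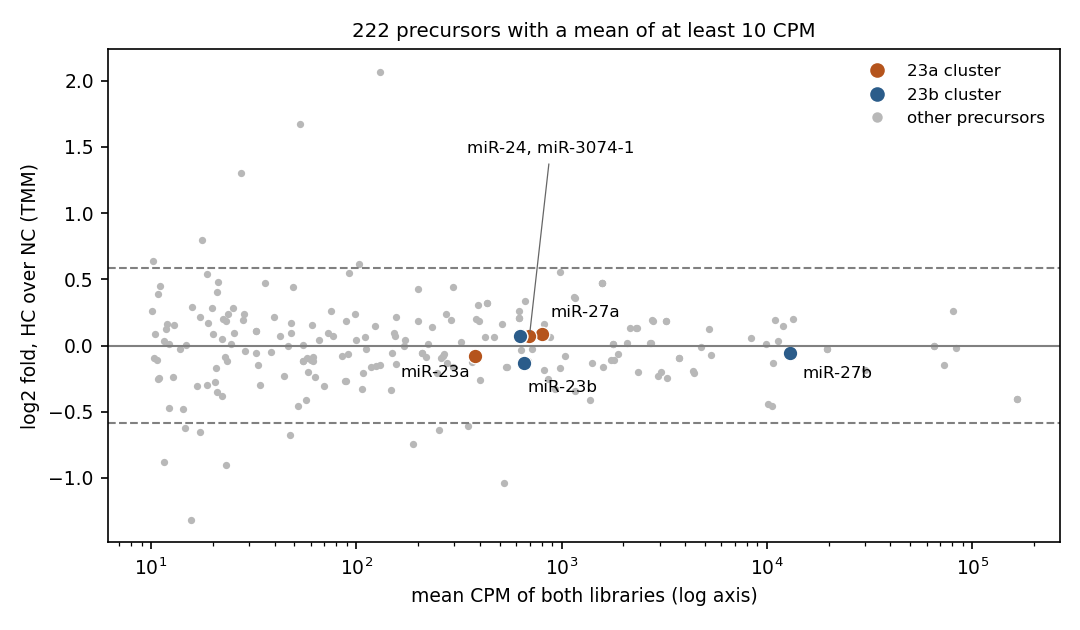
Log2 fold of HC over NC (TMM scaling) against the mean CPM of both libraries (log axis) for the 222 compared precursors, 1 point each, with dashed lines at 1.5-fold. The members lie between -0.13 and 0.087, inside the dashed lines and inside the central 90% of -0.47 to 0.47.

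The sign of each single fold depended on how the libraries were scaled. Under TMM, miR-27a and miR-24 were higher in HC and miR-23a, miR-23b and miR-27b lower. These signs held with median-of-ratios size factors and with upper quartile scaling. TMM over 1 precursor per set of copies and totals without the 10 top precursors kept them too, with miR-27b at -0.0068 and -0.037. Each sign changed under plain totals or under the authors' own denominators. Plain totals shift every log2 fold by 0.13, and all 5 measurements then lay above 0, with miR-23b at 0.0006 and its interval across 0. The other 4 were higher with intervals that excluded equality, as 60.8% of precursors were. The authors' own denominators shift every log2 fold by -0.11, and all 5 lay below 0 with intervals that excluded equality, as did 57.9% of the 233 precursors that averaged 10 CPM or more on that scale. No firm direction is therefore given for any of the 7 precursors. In HC, a lower level from fewer cells of a type and one from less RNA per cell cannot be told apart in such bulk tissue.

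**Figure D4:**
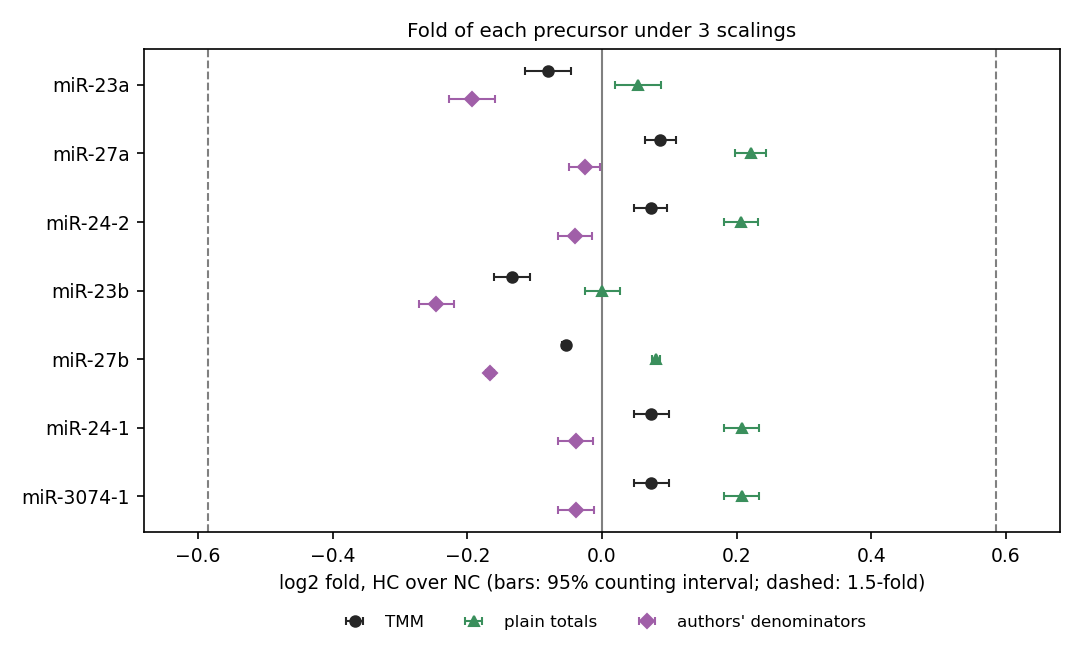
Log2 fold of HC over NC for the 7 precursors under TMM (circles), plain totals (triangles) and the authors' denominators (diamonds), with bars for the 95% counting interval and dashed lines at 1.5-fold. Every point stays inside 1.5-fold, while the scaling carries miR-23a, for example, to -0.080 under TMM, 0.054 with plain totals and -0.19 with the authors' denominators.

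Ratios within a library are free of that scaling, and they showed small shifts between paralogs. miR-23b made up 62.8% of the miR-23 counts in HC (62.3 to 63.4%) and 63.7% in NC (63.3 to 64.1%). miR-27b made up 93.9% of the miR-27 counts in HC (93.8 to 93.9%) and 94.4% in NC (94.3 to 94.5%). Both families leaned slightly further towards the 23a cluster in HC. The odds ratio of HC over NC was 0.96 (0.94 to 0.99) for miR-23b over miR-23a and 0.91 (0.89 to 0.92) for miR-27b over miR-27a. On the log2 scale these are -0.053 and -0.14, against a median size of 0.26 for the difference between any 2 of the 187 compared sets of precursors.

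The gap between the miR-27 paralogs was far wider than that between the miR-23 paralogs. miR-27b exceeded miR-27a 15.3-fold in counts in HC (15.1 to 15.5) and 16.9-fold in NC (16.7 to 17.0), or 18.2-fold and 20.1-fold per hairpin base. miR-23b exceeded miR-23a only 1.69-fold in HC (1.65 to 1.73) and 1.75-fold in NC (1.72 to 1.79). Although miR-27a-3p and miR-27b-3p differ at only 1 base, miR-27b held 386862 counts more than miR-27a in HC and 517456 more in NC. Whether part of the miR-27a counts are reads of miR-27b was not tested, and the same holds for miR-23.

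Within each cluster miR-23 was lower relative to its neighbours in HC. miR-27a over miR-23a was 2.25 in HC and 2.001 in NC, an odds ratio of 1.12 (1.09 to 1.16). miR-27b over miR-23b was 20.3 in HC and 19.2 in NC, an odds ratio of 1.06 (1.04 to 1.08). The ratio of miR-24-2 to miR-23a was 1.94 in HC and 1.75 in NC, an odds ratio of 1.11 (1.08 to 1.14). For miR-24-1 over miR-23b it was 1.04 in HC (1.02 to 1.06) and 0.90 in NC (0.88 to 0.91), with an odds ratio of 1.15 (1.13 to 1.18). The counts of that pair stood in opposite order in the libraries. With miR-24-2 instead, the ratio to miR-23b was 1.15 in HC (1.13 to 1.17) and 0.99 in NC (0.98 to 1.01). With that copy the NC counts did not differ beyond counting error. The ratio of miR-24 to miR-27 is given for each cluster in turn. For miR-24-2 over miR-27a it was 0.86 in HC and 0.87 in NC, with an odds ratio of 0.99 (0.97 to 1.01) that included equality. In the 23b cluster miR-27b over miR-24-1 was 19.6 in HC and 21.4 in NC, an odds ratio of 0.92 (0.90 to 0.93), so miR-27b was lower relative to miR-24-1 in HC. The miR-24 ratios of both clusters rest on shared counts and are not separate measurements.

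How the range within the 23b cluster compares with other clusters depended on whether miR-24 was counted in it. Precursors on 1 strand with gaps of at most 10 kb formed 41 clusters with at least 2 compared precursors each. Copies were kept once within a cluster, so copies of 1 miRNA and opposite hairpins could still enter through different clusters. The range of log2 folds was 0.17 in the 23a cluster and 0.21 in the 23b cluster, ranks 19 and 23 of 41 from the narrowest, and the median over clusters was 0.18. With copies kept once over all clusters, a choice made after seeing the data, 30 clusters were left with a median range of 0.16, and miR-24 stayed in the 23a cluster alone. The 23a cluster then had the same range of 0.17, rank 16 of 30, while the 23b cluster, with miR-23b and miR-27b only, had 0.080, rank 6 of 30. Among the 41 clusters the narrowest, miR-29b-2 with miR-29c, had a range of 0.0019, and the widest, miR-300, miR-376b and miR-381, had 1.44. In level, the 2.12-fold range of the 23a cluster was below the median of 14.2-fold over clusters, and the 20.5-fold range of the 23b cluster was above it.

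**Figure D5:**
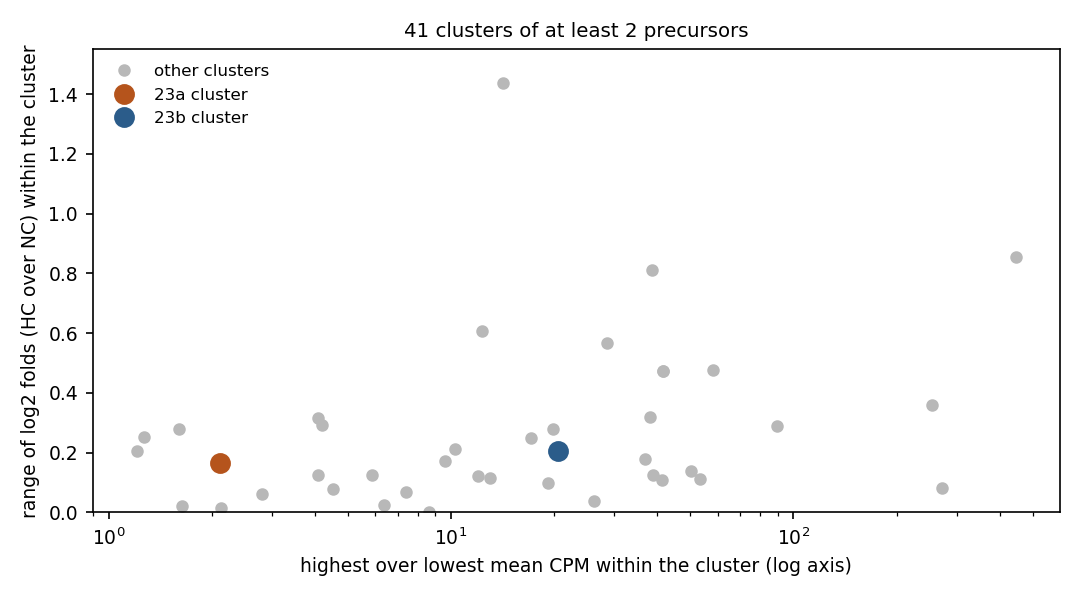
Range of log2 folds (HC over NC) within a cluster against the ratio of its highest to its lowest mean CPM (log axis) for 41 clusters, 1 point each. The 23a cluster lies at a range of 0.17 and a 2.12-fold spread of level, and the 23b cluster, miR-24-1 included, at 0.21 and 20.5-fold.

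The precursors nearest to the members in level, by distance in log2 CPM over the 2 libraries, were miR-30b for miR-23a (distance 0.073), miR-186 for miR-27a (0.036), miR-125b-2 for miR-24-2 (0.096), miR-101b for miR-23b (0.092) and miR-10a for miR-27b (0.19). miR-10a had 14333 CPM in HC and 12458 CPM in NC, so it lay above miR-27b in HC and below it in NC. miR-186 had 809 CPM in HC and 774 CPM in NC.

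miRNAs that share the known roles of these clusters went both ways between the libraries. Of 17 precursors listed for angiogenesis and endothelium, 13 were compared and 0 differed by 1.5-fold in either direction, where 7.21% of all compared precursors did. Their log2 folds ran from -0.31 to 0.33 with a median of -0.0024, and by their intervals 5 were higher and 4 lower in HC. The most abundant were miR-10b (-0.018), miR-10a (0.20) and miR-126a, the main endothelial miRNA (0.034). Of 19 precursors for muscle differentiation and atrophy, 18 were compared. Their log2 folds ran from -0.40 to 0.64 with a median of -0.0058, 8 were higher and 10 lower by their intervals, and 1 was at least 1.5-fold higher in HC. This was miR-499, from an intron of a myosin gene, with 12.4 CPM in HC and 7.98 CPM in NC, a log2 fold of 0.64 (0.42 to 0.85). Of 18 lipid and adipocyte precursors, 16 were compared, with log2 folds from -0.19 to 0.62 and a median of -0.083, 5 higher and 8 lower by their intervals. The erythroid miR-144 was at least 1.5-fold higher in HC, with 125 CPM in HC and 81.8 CPM in NC, a log2 fold of 0.62 (0.55 to 0.68). Over all compared precursors 2.7% were higher in HC by that limit. By their intervals, at any size, 39.6% of all compared precursors were higher in HC and 43.7% lower. Copies and opposite hairpins entered the 3 lists separately, so the numbers higher and lower exceed the number of separate measurements.

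Summed levels of the marker miRNAs of muscle and vessels were high in both libraries, although not every single marker was abundant. The 6 skeletal muscle markers summed to 69332 CPM in HC and 69377 CPM in NC, of which miR-133a-1 made up 65127 CPM in HC and 65383 CPM in NC. The others went both ways, with log2 folds of 0.47 for miR-1a-1, 0.55 for miR-208b, 0.64 for miR-499, -0.20 for miR-133b and -0.094 for miR-206. The pair of endothelial markers, which overlap each other and can share reads, summed to 21310 CPM in HC and 20948 CPM in NC. Of these sums miR-126a alone had 11407 CPM in HC and 11144 CPM in NC. Smooth muscle markers (2) summed to 69344 CPM in HC and 76571 CPM in NC. Nearly all of this was miR-143, with 69082 CPM in HC and 76298 CPM in NC, while miR-145a had 262 and 273 CPM. The 2 leukocyte markers matched by name, of 3, summed to 482 CPM in HC and 489 CPM in NC. The leukocyte pair moved in opposite directions, miR-223 with 340.3 CPM in HC and 251 CPM in NC (log2 fold 0.44) and miR-150 with 142 CPM in HC and 238 CPM in NC (-0.75). The remaining name, miR-142, is listed in the files as mmu-mir-142a and its opposite hairpin, and mmu-mir-142a had 1784 CPM in HC and 1771 CPM in NC. Erythrocyte markers (2) summed to 609 CPM in HC and 468 CPM in NC, and epithelial markers (7) to 139 and 188 CPM. Neuronal markers (6) summed to 16.9 CPM in HC and 27.4 CPM in NC. They are copies of miR-124 and of miR-9 with near-equal counts, so this sum repeats values. Alone, miR-124-1 had 0.67 CPM in HC and 0.81 CPM in NC, and miR-9-1 had 4.96 and 8.29 CPM. The liver marker miR-122 had 0.21 CPM in HC and 0.22 CPM in NC. No listed marker was at 0 in either library. The part of these differences in the values of the miR-23, miR-27 and miR-24 precursors was not tested.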

How the data were processed

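Per the labels, small RNA was prepared with Trizol, a mirVana kit and the Illumina TruSeq small RNA kit. Build mm10 and the tools HTSeq 0.5.4, TopHat2 2.0.10 and CASAVA 1.8.2 are listed in the submitters' processing notes. For trimming, strand assignment and reads that align repeatedly, the steps were not given in the sources used here. Whole-number read counts per hairpin, both arms summed, were deposited by the authors. The 5 summary rows stayed out of library sizes; they hold 55.9% of listed counts in HC and 44.1% in NC. A second deposited column, a signal scaled by the authors and headed RPM, is a fixed multiple of the count and sums to 1146026 in HC and 1359554 in NC; only its denominators (27222821 and 32252170) were used.

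Library sizes were TMM-scaled (edgeR 4.0.16, R 4.3.3) with no test from that package. Folds use no pseudocount; intervals are exact conditional binomial (Clopper-Pearson) for folds and shares, and exact conditional for odds ratios (scipy 1.17.1). The labels name no molecular identifiers, so reads can be copies of 1 molecule and intervals describe counting error alone. A count of 0 allows up to 3 counts, or 0.0918 CPM in HC and 0.0717 CPM in NC. In simulated counts for HC over NC (1187 precursors, 200 changed), all 67 compared changed precursors passed the 1.5-fold limit and 0 of 151 unchanged ones did. These values check the calculation alone. Spread between animals was not tested.

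Members, lists and limits were chosen with earlier results of these data known. Named precursors are the members, the nearest in level to each, list members past 1.5-fold or else the 3 most abundant, the narrowest and widest clusters, and hairpins opposite a member. Sequences are from RefSeq GRCm38.p6, and genes from GENCODE M21, whose miRNA genes matched the coordinates of all 1187 precursors.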

Additional observations from a re-analysis of the deposited data

Results flagged for a closer look

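Counts not assigned to a precursor, held in the 5 summary rows, took 55.9% of the listed counts in HC and 44.1% in NC. The rows are for reads with no feature and for ambiguous, low-quality, unaligned and multiply aligned reads. They are therefore no measure of RNA from outside the precursors. They are listed for the higher share in HC than in the control. They entered no comparison. Their part in the values of the miR-23, miR-27 and miR-24 precursors was not tested.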

How the results depend on the processing

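With 0 of 7 members past 1.5-fold, the count was also 0 under every scaling and filter tried and at the lower and higher fold limits tried. The median log2 fold over the 5 separate measurements was -0.053 under TMM. It was 0.081 with plain totals, -0.048 with median-of-ratios size factors and -0.027 with upper quartile scaling. TMM over 1 precursor per set of copies gave a median of -0.0068, and the authors' denominators gave -0.17. When the totals omitted the 10 top precursors it was -0.037. Over all 7 listed precursors, where miR-24 counts 3 times, the median under TMM was 0.072. With plain totals the log2 fold turned to 0.054 for miR-23a, 0.0006 for miR-23b and 0.081 for miR-27b. With the authors' denominators it turned to -0.026 for miR-27a, -0.040 for miR-24-2 and -0.039 for miR-24-1 and miR-3074-1. These follow from the constant shift of each scaling. With miR-24 from the other copy, the odds ratio of miR-24 over miR-23 stayed within its interval in both clusters. Both copies are 1 measurement here, so this swap could hardly move the odds ratio and says nothing about its stability. With copies kept once over all clusters, added after seeing the data, the range of folds in the 23b cluster was 0.080 against 0.21, since miR-24-1 drops out. The other gap limit and CPM minimum left the same precursors in both clusters, and the authors' column is a fixed multiple of the counts, so these alternatives say nothing about the stability of the cluster ranges or the paralog shares. No paired analysis was possible because each group has 1 library, and for the same reason no library could be left out.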
